A study of Homo sapiens with 9 samples.

Results

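The genes described here are 10 heat shock genes, namely HSPA1A, HSPA1B, HSPA8, HSPH1, DNAJB1, DNAJA1, HSP90AA1, HSPB1, HSPE1 and BAG3, taken by exact gene symbol from the 60612 genes of the deposited table. RNA was sequenced from HepG2, an established human liver cancer line that keeps many hepatocyte features, in 9 libraries. The control group was 3 libraries of cells given 0.1% DMSO, the solvent. The PQY09 group was 3 libraries of cells given butyrolactone I at 50 µM, and the PQY23_1 group was 3 libraries of cells given a derivative known here only by that code, also at 50 µM. No genetic change introduced for the study is named for any group in the sources used here. The sources used here do not give the exposure time or say whether the compound wells also held DMSO. Nor do they say if replicates were grown as separate cultures, so the p-values measure the spread between these libraries, which may be technical. As a single tumour line, HepG2 stands for liver cells only in part.

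Heat shock proteins are molecular chaperones, which bind unfolded or partly folded proteins and help them fold, or pass them on for breakdown. In the cytosol, HSP70 proteins hold clients in a cycle driven by ATP: J proteins such as DNAJB1 and DNAJA1 bring clients and speed up ATP hydrolysis, exchange factors such as HSPH1 and BAG3 release ADP and the client, and HSP90 proteins act further on many clients, kinases and steroid receptors among them. Heat, proteotoxic metals and HSP90 inhibitors raise the transcription of many of these genes through the factor HSF1, which binds heat shock elements, inverted repeats of the letters nGAAn. HSPE1 is the exception to the name of the group: its protein, HSP10, is known as the co-chaperonin of HSPD1 (HSP60) in the mitochondrial matrix.

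The stretches just upstream of 6 of the genes are shown because they hold, or lack, the letters of a heat shock element. They are the bases directly before a transcription start in RefSeq (GRCh38.p14), each written 5′ to 3′ on the strand of its gene, with heat shock element letters in capitals. HSPA1A lies at chr6:31815423-31815542 on the plus strand and HSPA1B at chr6:31827618-31827737 on the plus strand. HSPA8 lies at chr11:123062137-123062256, HSPH1 at chr13:31162389-31162508, DNAJB1 (the second of 3 RefSeq starts) at chr19:14518398-14518517 and HSP90AA1 (the second of 2 RefSeq starts) at chr14:102087045-102087164, all on the minus strand.
HSPA1A: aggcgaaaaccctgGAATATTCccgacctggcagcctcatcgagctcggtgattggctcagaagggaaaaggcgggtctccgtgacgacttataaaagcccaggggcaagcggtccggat
HSPA1B: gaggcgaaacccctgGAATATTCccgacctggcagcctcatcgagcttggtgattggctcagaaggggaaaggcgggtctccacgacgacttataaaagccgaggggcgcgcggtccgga
HSPA8: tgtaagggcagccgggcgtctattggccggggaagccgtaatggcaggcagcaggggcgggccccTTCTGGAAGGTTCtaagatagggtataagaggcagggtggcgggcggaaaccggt
HSPH1: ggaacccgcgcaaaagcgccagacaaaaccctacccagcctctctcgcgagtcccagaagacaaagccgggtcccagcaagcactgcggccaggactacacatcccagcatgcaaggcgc
DNAJB1: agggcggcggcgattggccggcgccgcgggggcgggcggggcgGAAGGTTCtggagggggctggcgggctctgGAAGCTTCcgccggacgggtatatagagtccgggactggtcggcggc
HSP90AA1: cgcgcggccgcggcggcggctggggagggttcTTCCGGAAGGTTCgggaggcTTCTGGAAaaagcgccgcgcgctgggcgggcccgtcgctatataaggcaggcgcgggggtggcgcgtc

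In the 250 bases before each RefSeq start, searched on both strands, the 2-unit element was GAANNTTC or TTCNNGAA, where N is any base. The 3-unit element was 3 alternating units of GAA and TTC with NN between neighbours, starting with either, and every 3-unit match also contains a 2-unit one. The 10 genes had 13 such windows. The 3-unit letters were found in 2 of the 13 windows, of HSPA8 and HSP90AA1, against 154 of all 34943 windows (0.441%). The 2-unit letters were found in 7 of the 13 windows, each of a different gene, against 4053 of all windows (11.6%), and not at HSPH1, HSPE1 or BAG3. HSPA1A and HSPA1B each held 1 exact 2-unit match, 106 to 99 and 105 to 98 bases before the start. A match is a description of letters, and elements with a mismatched unit were not searched.

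**Figure D1:**
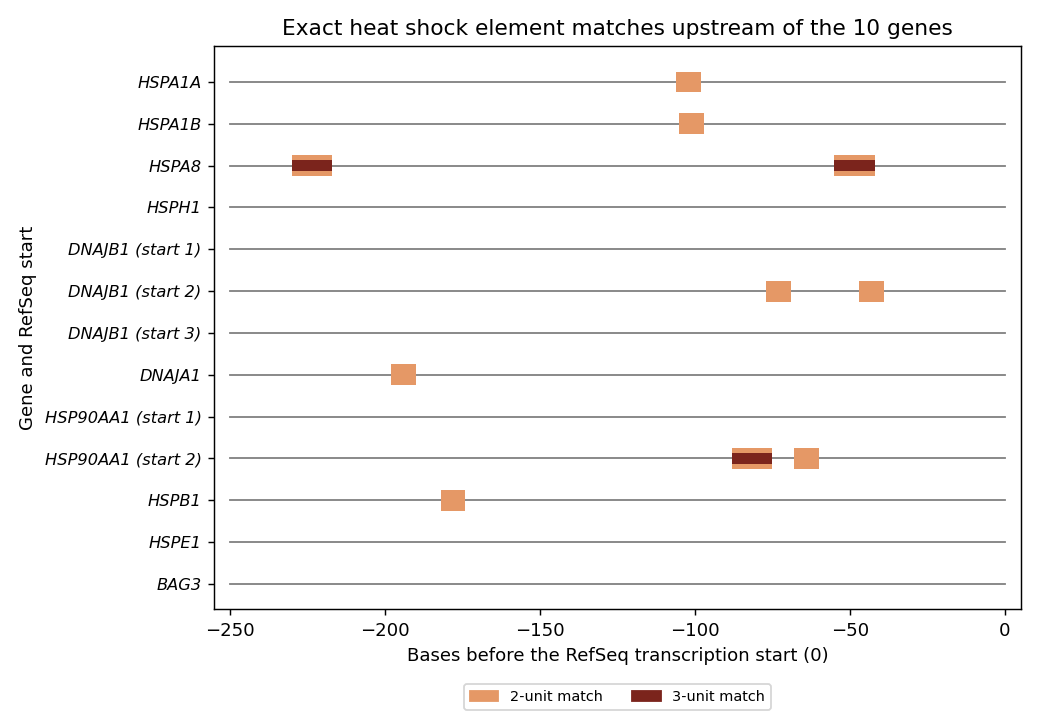
Position of exact heat shock element letters in the 250 bases before each RefSeq start of the 10 genes, with the x axis in bases before the start at 0. Light boxes are 2-unit matches and dark boxes 3-unit matches, the latter at HSPA8 and HSP90AA1.

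The libraries held 85050531 to 107538450 counts each, and levels are given as CPM, counts scaled to a common library size. Of the 20157 genes that passed a filter on low counts and were tested, 10 were the members, so no member was lost. Together they took 0.525% to 0.680% of a library's counts. All 12 hepatocyte markers were tested, and their summed level was 35915 to 38484 CPM in DMSO, 35235 to 37561 in PQY09 and 32704 to 34158 in PQY23_1. Of these 12, ALB and TF rose under PQY09, and under PQY23_1 APOA2 rose and TF fell. Between the compounds, ALB, APOA1 and TF were lower and APOA2 was higher with PQY23_1 than with PQY09. The 7 fibroblast markers summed to 7.50 to 8.01, 5.05 to 6.02 and 5.47 to 6.83 CPM in the same order of groups, with COL1A2 at 0. The 5 endothelial markers summed to 1.70 to 2.40, 2.71 to 3.39 and 1.61 to 2.29 CPM, with KDR and TEK at 0, and CDH5 was lower with PQY23_1 than with PQY09. The 6 immune markers summed to 1034.5 to 1411, 512 to 681 and 966 to 1167 CPM, with CD3E at 0. That sum was nearly all LYZ, the lysozyme gene, which fell under PQY09 from 1246 to 583 CPM (adjusted p = 0.00721). The share of counts from mitochondrial genes was 12.6% to 14.1% in DMSO, 12.5% to 14.6% in PQY09 and 14.5% to 16.4% in PQY23_1.

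On the per-length scale (FPKM, in which each gene is divided by its length), HSP90AA1 and HSPA8 were the most abundant of the 10 in DMSO-treated cells, at 351 ± 17.1 and 329 ± 75.4 FPKM (SD, n = 3). HSPE1 (191 ± 71.8) and DNAJA1 (141 ± 9.06) followed, and neighbours in this order overlapped from HSP90AA1 down to DNAJA1. DNAJB1 (55.6 ± 1.26), HSPA1B (52.5 ± 1.9), HSPA1A (46.6 ± 2.17) and HSPB1 (38.8 ± 2.44) came next and did not overlap. HSPH1 (16.1 ± 0.468) and BAG3 (14.6 ± 0.963) were lowest and overlapped. The stress-inducible pair was thus present at a moderate level before any compound. Under PQY09 the order changed at 1 place beyond overlap: HSPA1B (92.96 FPKM) and HSPA1A (80.4) both stood above DNAJB1 (62.6). Under PQY23_1, DNAJB1 (67.9) lay between HSPA1B (73.8) and HSPA1A (62.3).

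PQY09 was compared with DMSO to ask which chaperone transcripts the compound moved. It raised 3 of the 10 genes and lowered none: the inducible HSP70 genes HSPA1A and HSPA1B, by about the same factor, and the HSP110 gene HSPH1, by less. Reads of HSPA1A and HSPA1B cannot be told apart over most of their coding part. The pair may thus be largely 1 signal in every count of genes given here. None of the 10 was lower at an unadjusted p below 0.05 in edgeR, or after adjustment in DESeq2 or limma, under either compound. Over all tested genes 2.85% were called in this comparison at an adjusted p below 0.05, 1.78% higher and 1.07% lower. Among the 9391 genes with a mean of at least 10 CPM, where all 10 members lie, 2.9% were called higher. In 5 of the 10 genes the PQY09 and DMSO ranges did not overlap, all 5 higher, against 24.4% of all tested genes with no overlap and 12.9% higher. The 10 genes were chosen with earlier results of these data known, so such shares do not test whether the group responded beyond background. The fold change was above 0 in 7 of the 10, against 50.5% of all genes, and the median log2 fold change of the 10 was 0.16, beside 0.00 over all genes tested. In bulk RNA a change in the share of cells that express a gene and a change of RNA per cell cannot be told apart.

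HSPA1A encodes the main stress-inducible HSP70, at chr6:31815543-31817946 on the plus strand (hg38). Its levels were 130, 127 and 141 CPM in DMSO replicates 1 to 3, 229, 217 and 232 in PQY09, and 187, 170 and 183 in PQY23_1. The 3 groups did not overlap, with PQY09 highest and DMSO lowest. Relative to DMSO, HSPA1A rose 1.70-fold under PQY09 (log2 0.77 ± 0.06 SE, 95% interval 0.62 to 0.91, adjusted p = 0.000516).

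HSPA1B, at chr6:31827738-31830254 on the plus strand, encodes a near-identical HSP70. Its levels were 161, 148 and 161 CPM in DMSO, 279, 263 and 278 in PQY09, and 240.8, 209 and 220 in PQY23_1. The 3 groups were in the same order and again did not overlap. HSPA1B rose 1.75-fold under PQY09 (log2 0.80 ± 0.07 SE, 95% interval 0.65 to 0.95, adjusted p = 0.000516). The 2 coding sequences are both 1926 bases long with 4 differences (99.8% identical) and share a run of 1709 identical bases, so reads cannot be assigned to one of them with certainty over most of the coding part. HSPA1A took 43.8% to 46.8% of the pair's counts in every library. Summed, the pair went from 289 CPM in DMSO to 499 in PQY09 (log2 0.79 ± 0.06 SE, adjusted p = 0.000388). This sum does not depend on how reads were split between the 2 genes if each read was counted once. Whether each was is not given in the sources used here. HSPA1A and HSPA8 are 73.3% identical in coding sequence and share no identical run longer than 23 bases.

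HSPH1, at chr13:31134973-31162388 on the minus strand, encodes HSP105, a member of the HSP110 family that releases ADP from HSP70. It stood at 162, 161 and 156 CPM in DMSO, 194, 196 and 190 in PQY09, and 191, 189 and 199 in PQY23_1. Both compound groups lay wholly above DMSO, and they overlapped each other. HSPH1 rose 1.21-fold under PQY09 (log2 0.27 ± 0.05 SE, adjusted p = 0.0178). This call held in 12 of 19 alternative analyses and in 3 of the 9 that each left out 1 library, where the adjusted p reached 0.0835.

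**Figure D2:**
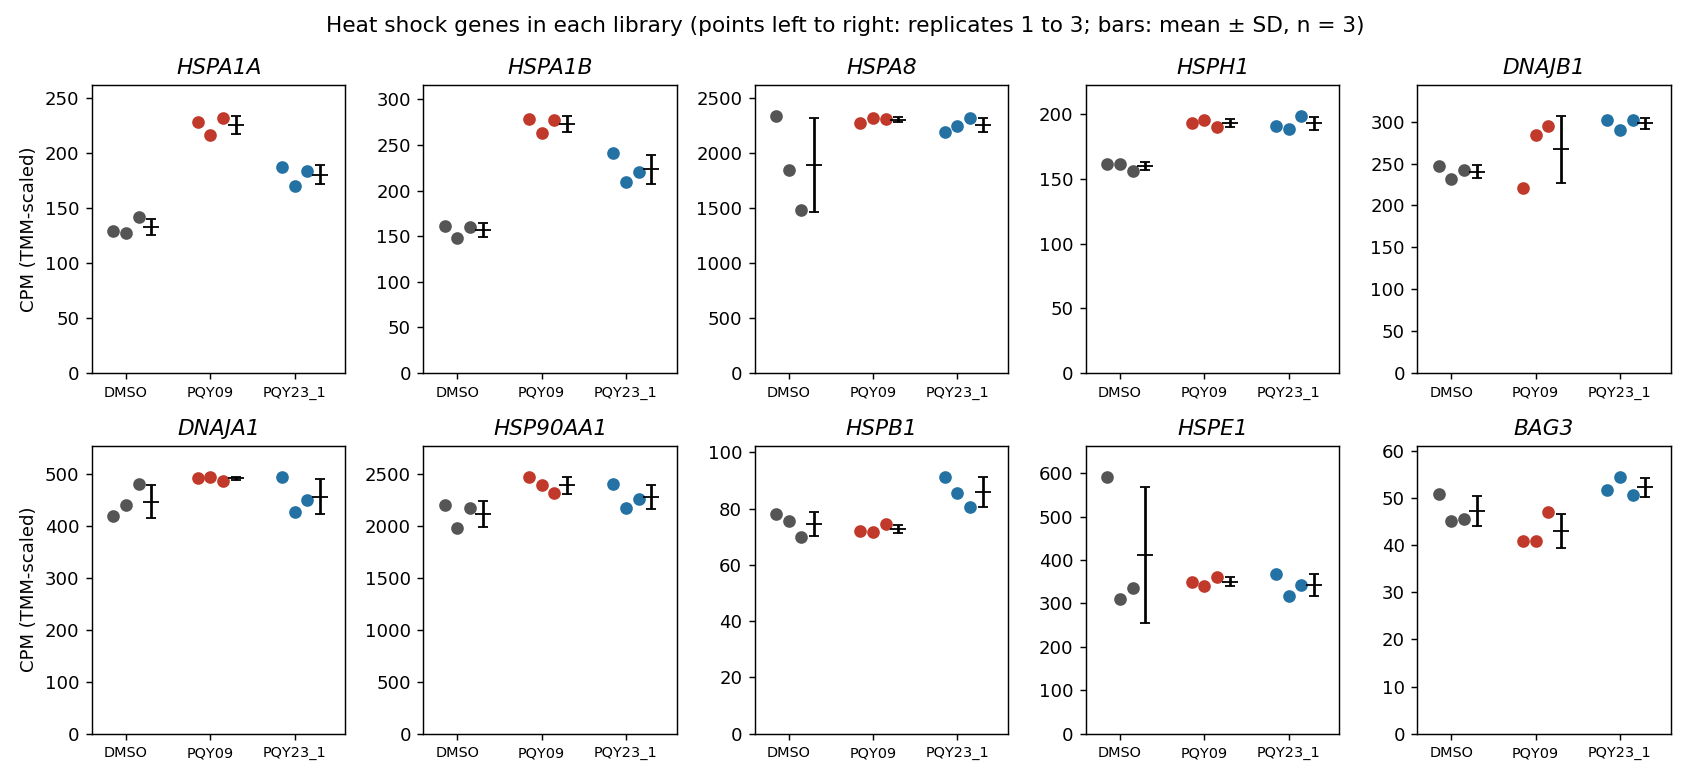
CPM of each of the 10 genes in the 9 libraries, by group, with points for libraries and the mean ± SD (n = 3) marked; each panel starts at 0 and has its own scale. HSPA1A and HSPA1B step from DMSO (133 and 157 CPM) to PQY23_1 (180 and 223) to PQY09 (226 and 273), while HSPA8 and HSPE1 are spread widely in DMSO.

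HSPA8, the constitutive HSP70 that serves folding, clathrin uncoating and chaperone-mediated autophagy, did not pass the test. It stood at 2339, 1849 and 1483 CPM in DMSO, 2276, 2321 and 2309 in PQY09, and 2194, 2246 and 2317 in PQY23_1. The spread was in DMSO, whose replicate 1 reached the level of the treated libraries while replicates 2 and 3 lay below all of them. The log2 difference of PQY09 from DMSO was 0.28 with a 95% interval from -0.02 to 0.59 (adjusted p = 0.362). Leaving out 1 library moved this difference to between 0.14 and 0.47, with a lowest adjusted p of 0.0539, so its size depends on single libraries. The coefficient of variation of HSPA8 in DMSO was 22.7%, against a median of 6.61% and a 95th percentile of 32.5% over genes with at least 10 CPM.

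The J proteins did not pass the test either. DNAJB1, which directs HSP70 in protein disaggregation, stood at 247, 232 and 243 CPM in DMSO, 221, 285 and 295 in PQY09, and 302, 290 and 302 in PQY23_1. PQY09 replicate 1 was the lowest of all 9 libraries, and the other 2 PQY09 libraries lay above DMSO. The log2 difference of PQY09 from DMSO was 0.15 (95% interval -0.07 to 0.38, adjusted p = 0.543). DNAJA1, a J protein for new and mitochondria-bound proteins, stood at 419, 439 and 480 CPM in DMSO, 492, 493 and 486 in PQY09, and 494, 426 and 448 in PQY23_1. The PQY09 values lay just above the highest DMSO value, a log2 difference of 0.14 (95% interval -0.02 to 0.30, adjusted p = 0.405).

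HSP90AA1, the inducible cytosolic HSP90, stood at 2210, 1979 and 2179 CPM in DMSO, 2480, 2394 and 2318 in PQY09, and 2403, 2174 and 2260 in PQY23_1. PQY09 lay above DMSO without overlap, but the log2 difference of 0.18 (95% interval 0.04 to 0.31) did not pass over all genes (adjusted p = 0.192). Its constitutive partner HSP90AB1 had 3552 CPM in DMSO and 3365 in PQY09 (log2 -0.08, adjusted p = 0.365). For HSP90AB1 both compound groups lay below DMSO without overlap, with 3330 CPM in PQY23_1 (log2 -0.09, adjusted p = 0.262).

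The small heat shock protein HSPB1 (HSP27), which holds unfolded proteins in large oligomers, stood at 78.1, 75.7 and 70.0 CPM in DMSO, 71.9, 71.8 and 74.5 in PQY09, and 91.4, 85.4 and 80.7 in PQY23_1. DMSO and PQY09 overlapped and PQY23_1 lay above both. The log2 difference of PQY09 from DMSO was -0.04 (adjusted p = 0.868). BAG3, which links HSP70 with small heat shock proteins and selective autophagy, stood at 50.9, 45.1 and 45.5 CPM in DMSO, 40.8, 40.9 and 47.1 in PQY09, and 51.6, 54.5 and 50.5 in PQY23_1. It is a typical HSF1 target, and its PQY09 difference was -0.14 on the log2 scale (95% interval -0.32 to 0.05, adjusted p = 0.485).

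HSPE1 stood at 592, 310 and 335 CPM in DMSO, 350, 340 and 361 in PQY09, and 369, 317 and 343 in PQY23_1. DMSO replicate 1 stood far above the other 8 libraries, and its partner HSPD1 showed no such value there (2265 CPM, against 2228 and 2375 in the other DMSO libraries). The log2 difference of PQY09 from DMSO was -0.24 (95% interval -0.72 to 0.25, adjusted p = 0.693) and turned to 0.12 without that library. The HSPE1 and HSPD1 genes overlap on opposite strands, as do DNAJB1 and TECR, and HSP90AA1 overlaps WDR20; whether counting used strand is not given in the sources used here, so these 3 members carry that limit. Annotated pseudogene copies of HSPE1 held counts equal to 1.97% to 5.84% of its own, and those of HSP90AA1 0.873% to 1.08%.

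**Figure D3:**
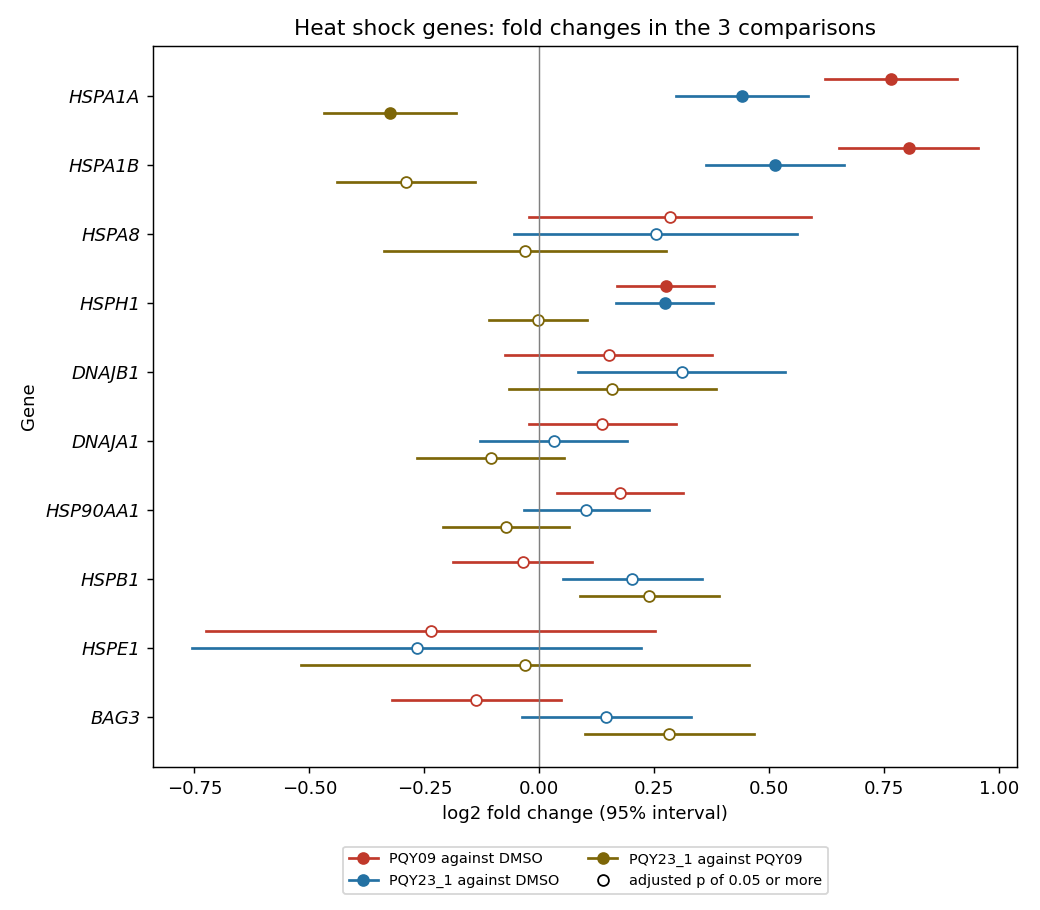
Log2 fold changes of the 10 genes with 95% intervals in the 3 comparisons, filled where the adjusted p over all tested genes was below 0.05. HSPA1A and HSPA1B lie furthest from 0 in both comparisons with DMSO, and HSPE1 has the widest intervals.

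PQY23_1 was compared with the same 3 DMSO libraries, so its differences are not independent of those of PQY09. Again 3 of the 10 genes were called higher and none lower, HSPA1A, HSPA1B and HSPH1, while 2.55% of all tested genes were called, 1.51% higher and 1.04% lower. As before, HSPA1A and HSPA1B may be largely 1 signal. The 10 genes were chosen with earlier results of these data known, so shares do not test a response beyond background. Among genes with a mean of at least 10 CPM 2.27% were called higher. In 5 of 10 genes the ranges did not overlap, all higher, against 22.5% of all genes, 11.8% higher and 10.7% lower. The fold change was above 0 in 9 of the 10, against 51.1% of all genes. The median log2 fold change of the 10 was 0.23, beside 0.01 over all genes. The mitochondrial share of counts was also higher in every PQY23_1 library than in any DMSO library, and its part in these results was not tested.

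HSPA1A rose 1.36-fold (log2 0.44 ± 0.06 SE, 95% interval 0.30 to 0.58, adjusted p = 0.0112), and without DMSO replicate 2 the adjusted p was 0.0575. HSPA1B rose 1.43-fold (log2 0.51 ± 0.07 SE, 95% interval 0.36 to 0.66, adjusted p = 0.0075), a call that held in all 19 alternatives. The sum of the pair was 404 CPM, up by 0.48 ± 0.06 on the log2 scale (adjusted p = 0.00722). HSPH1 rose 1.21-fold (log2 0.27 ± 0.05 SE, adjusted p = 0.0213), a call that held in 12 of 19 alternatives and in 4 of the 9 that left out 1 library. Those 4 left out PQY09 replicate 2 or 3, or PQY23_1 replicate 1 or 2. The call was lost without any 1 of the DMSO libraries, without PQY09 replicate 1 and without PQY23_1 replicate 3.

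Among the other 7 genes, DNAJB1 and HSPB1 were above DMSO without overlap but were not called. DNAJB1 differed by 0.31 (95% interval 0.08 to 0.54, adjusted p = 0.161) and HSPB1 by 0.20 (95% interval 0.05 to 0.35, adjusted p = 0.168) on the log2 scale. DNAJB1 was called only when PQY09 replicate 1, which adds to the common estimate of spread, was left out (adjusted p = 0.0381). HSPA8 differed by 0.25 (-0.05 to 0.56), BAG3 by 0.15 (-0.04 to 0.33), HSP90AA1 by 0.10 (-0.03 to 0.24) and DNAJA1 by 0.03 (-0.13 to 0.19). Leaving out 1 library moved the HSPA8 difference to between 0.11 and 0.44, with a lowest adjusted p of 0.0729. HSPE1 differed by -0.27, which turned to 0.09 without DMSO replicate 1.

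The compounds were then compared directly, as 1 pair at the same dose. HSPA1A was lower with PQY23_1 than with PQY09, and it was the one gene of the 10 called (log2 -0.32 ± 0.06 SE, 95% interval -0.47 to -0.18, adjusted p = 0.0364), while 2.22% of all genes were called in this comparison, 1.22% higher and 1% lower. Among genes with a mean of at least 10 CPM 1.66% were called lower. HSPA1B differed by a similar amount without passing (log2 -0.29, 95% interval -0.44 to -0.14, adjusted p = 0.065). The pair's sum differed by -0.31 ± 0.06 (adjusted p = 0.0409), which leaving out 1 library moved to between -0.35 and -0.26 with adjusted p from 0.0336 to 0.159. The HSPA1A call held in 9 of 19 alternatives. Of the runs that left out 1 library, only that without DMSO replicate 3 kept it. Its side of the threshold was thus not settled here, although the libraries of the compounds did not overlap for either gene.

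In 4 of the 10 genes the compounds did not overlap, 2 higher and 2 lower with PQY23_1, against 22% of all genes, 10.8% higher and 11.2% lower. The 2 lower were HSPA1A and HSPA1B, whose reads cannot be fully told apart, and the choice of the 10 limits these shares too. The 2 higher were HSPB1 (log2 0.24, 95% interval 0.09 to 0.39, adjusted p = 0.121) and BAG3 (log2 0.28, 95% interval 0.10 to 0.47, adjusted p = 0.131). HSPB1 and BAG3 thus stood on the opposite side from HSPA1A and HSPA1B, without passing the edgeR test, while DESeq2 called both (adjusted p = 0.0296 and 0.0425). Of the 19 alternatives, only DESeq2 called either gene in this comparison. For HSPH1 the compounds differed by -0.00 with a 95% interval from -0.11 to 0.10, for DNAJA1 by -0.11 (-0.27 to 0.05), for HSP90AA1 by -0.07 (-0.21 to 0.06), for DNAJB1 by 0.16 (-0.07 to 0.38) and for HSPA8 by -0.03 (-0.34 to 0.28). The difference was above 0 in 3 of the 10 genes, against 48.7% of all genes. These intervals bound the difference, and a p above the threshold does not show that the compounds acted alike.

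Other genes of the cytosolic chaperone system, and other HSF1 targets that are not all cytosolic chaperones, were set beside the 10. Across 8 lists of heat shock factors, other HSP70, J, exchange factor, HSP90 and small heat shock genes, the TRiC chaperonin with prefoldin, and other HSF1 targets, 92 of 98 genes were tested. Under PQY09, 1 rose and 1 fell in edgeR, where 2.85% of all tested genes were called, and the median log2 fold change was 0.02. At an unadjusted p below 0.05, 7 were higher and 5 lower, and DESeq2 called 1 higher and 3 lower after adjustment. Under PQY23_1, 0 rose and 1 fell in edgeR, where 2.55% of all genes were called, with a median of 0.05. At an unadjusted p below 0.05, 9 were higher and 5 lower, and DESeq2 called 3 higher and 1 lower after adjustment. All-gene shares at the unadjusted threshold and for DESeq2 are not given here. DESeq2 called more genes in total than edgeR, so these list counts do not show an excess over background. HSF1 itself stood at 36.8 CPM in DMSO and differed by 0.07 (adjusted p = 0.72) and -0.06 (adjusted p = 0.779), and HSF2 by 0.19 (adjusted p = 0.372) and 0.03. HSPA6, an HSP70 gene known for being nearly silent without strong stress, had 0 to 12 counts in a library and was not tested.

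The genes that passed the edgeR test in those lists were HMOX1, SERPINH1 and CDC37. HMOX1 and SERPINH1 came from the list of other HSF1 targets, and the remaining lists had none called against DMSO in edgeR. HMOX1, the haem-degrading enzyme that answers oxidative stress through NRF2 as well as HSF1, rose under PQY09 from 104 to 137 CPM (log2 0.40 ± 0.06 SE, adjusted p = 0.0143), stood at 97.7 under PQY23_1, and was lower with PQY23_1 than with PQY09 (log2 -0.49, adjusted p = 0.00638). SERPINH1, the collagen chaperone HSP47, fell from 181 CPM to 148 under PQY09 (adjusted p = 0.024) and 150 under PQY23_1 (adjusted p = 0.0344). CDC37, which loads kinases onto HSP90, was higher with PQY23_1 than with PQY09 (log2 0.32, adjusted p = 0.0385).

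Chaperones of other compartments were set beside them. Of 16 mitochondrial chaperone and protease genes, 0 were called under PQY09 by edgeR, 2 were higher and 3 lower at an unadjusted p below 0.05, and DESeq2 called 1 higher and 3 lower, while limma called HTRA2 higher. Under PQY23_1 DNAJC19, an import motor J protein, fell (log2 -0.39, adjusted p = 0.0466). HSPD1 differed by -0.06 and 0.04. Of 18 endoplasmic reticulum chaperones, edgeR called 2 lower under PQY09 and 1 under PQY23_1, and 0 higher. Beside these edgeR counts, 1.07% of all tested genes were called lower and 1.78% higher under PQY09. For PQY23_1 the shares were 1.04% lower and 1.51% higher. At an unadjusted p below 0.05, 8 and 5 were lower and 0 higher, and DESeq2 called 6 and 3 lower after adjustment. The unadjusted and DESeq2 counts of this paragraph have no all-gene share beside them. Under PQY09, 10 of the 18 lay below DMSO without overlap, against 11.5% of all tested genes, and under PQY23_1 5 did, against 10.7%. HSPA13 fell under both compounds, from 54.3 to 39.2 and 38.0 CPM (adjusted p = 0.00572 and 0.00506), DNAJC10 fell under PQY09 (log2 -0.26, adjusted p = 0.0264), and HSPA5 (BiP) differed by -0.19 (adjusted p = 0.0842) and -0.00. Of 35 proteasome subunits, edgeR called 0 in either comparison, with list medians of -0.07 and 0.04. Under PQY09, 10 of the 35 lay below DMSO without overlap and 1 above, against 11.5% and 12.9% of all tested genes. Under PQY23_1 1 lay below and 2 above, against 10.7% and 11.8%. At an unadjusted p below 0.05, 1 was higher and 4 lower under PQY09 and 2 were higher under PQY23_1. DESeq2 called 1 in each, PSMD12 lower under PQY09 and PSMD2 higher under PQY23_1. The lists of this paragraph were also chosen with earlier results of these data known, which limits comparison with all-gene shares.

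Immediate early genes, which answer many stimuli within minutes, also rose. Of 21 tested, 12 rose under PQY09 and 6 under PQY23_1 in edgeR and none fell, where 1.78% and 1.51% of all genes were called higher. This list was chosen with earlier results of these data known, so the shares do not test a response beyond background. DESeq2 called 12 and 11 higher and limma 12 and 6, so the size of the gap in counts depends on the tool. In the direct comparison edgeR, DESeq2 and limma each called the same 6 lower with PQY23_1 than with PQY09, and 0 higher. These were JUN, EGR1, ATF3, BTG2, CCN1 and CCN2. The median log2 fold changes were 0.995 and 0.52. Their summed level was 507 to 597 CPM in DMSO, 1042 to 1185.5 in PQY09 and 709 to 821 in PQY23_1, the same order of groups as for HSPA1A and HSPA1B. JUN, for one, stood at 47.4 CPM in DMSO, 253 in PQY09 and 114 in PQY23_1. Their part in the heat shock results was not tested.

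**Figure D4:**
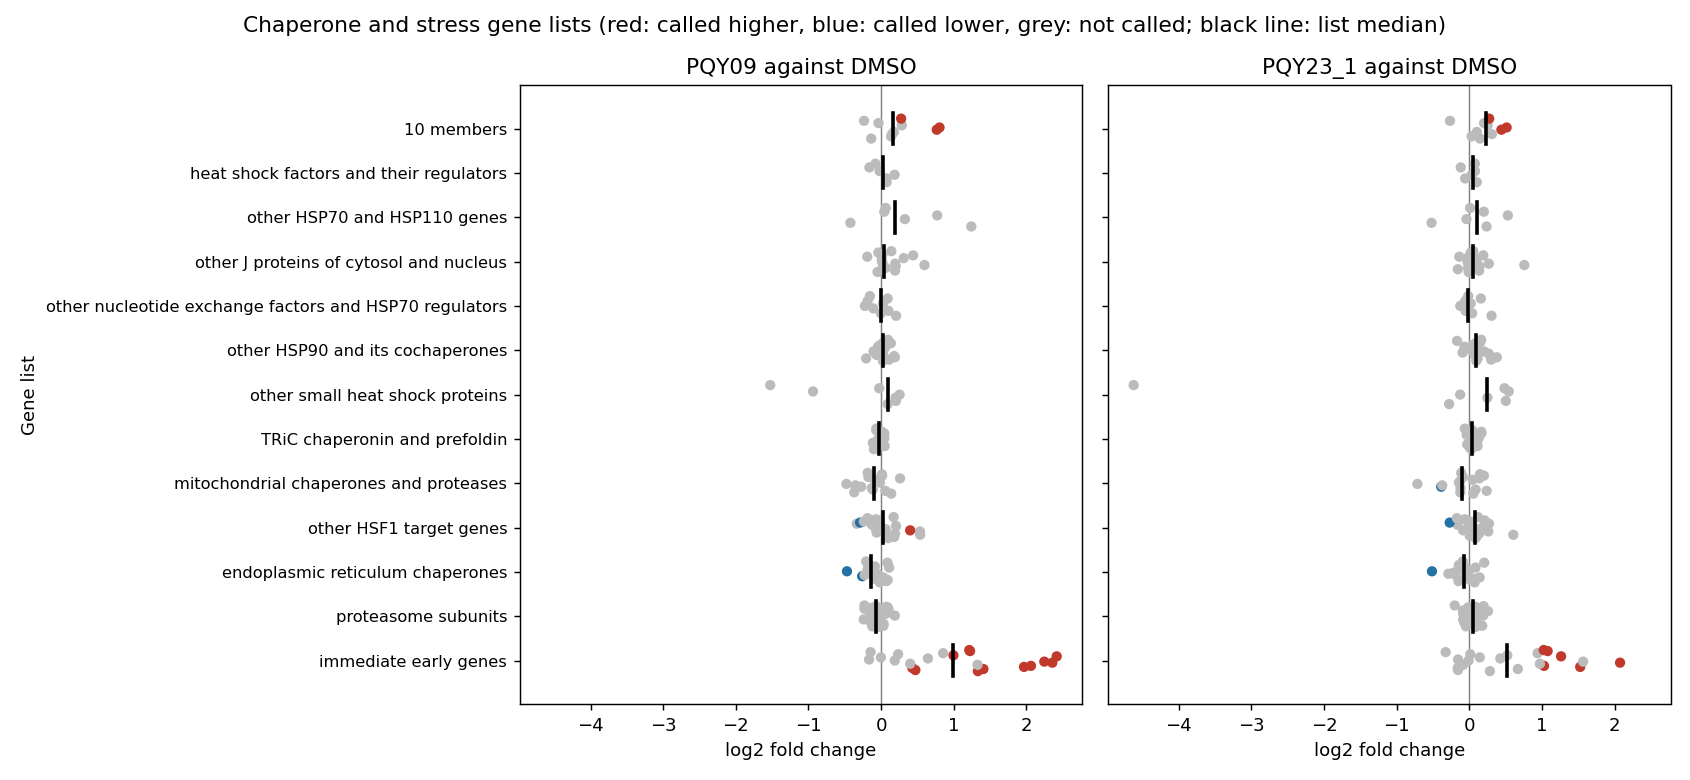
Log2 fold changes against DMSO of the 10 genes and of the other chaperone, proteasome and immediate early lists, 1 point a gene, red and blue where called higher and lower, with the list median as a black line. The HSP70 pair and HSPH1 are red in the top row, list medians of the chaperone and proteasome rows lie between -0.13 and 0.25, and those of the immediate early genes at 0.995 and 0.52; the point at -4.62 is HSPB9, not called.

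HSPA1B had the smallest p of the 10 for any difference among the 3 groups, and the genes with the most similar profile over the 9 libraries were ranked by the root mean square distance of their centred log2 CPM among 10838 genes. Beyond HSPA1A, at 0.05 log2 units, the 5 closest were ACSM2B (0.05), PRR15 (0.09), ID2 (0.09), AKR1C2 (0.10) and ADM (0.10). ACSM2B is a medium-chain acyl-CoA ligase of liver mitochondria, ID2 an inhibitor of helix-loop-helix factors, AKR1C2 an aldo-keto reductase and ADM the precursor of adrenomedullin. AKR1C2 went from 832 ± 61.7 CPM in DMSO to 1347 ± 121 in PQY09 and 1041 ± 74.6 in PQY23_1 (SD, n = 3). None of the 5 is in a chaperone list used here.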

How the data were processed

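RNA of 9 HepG2 libraries was sequenced. The deposited table gives, per gene and library, a count and an FPKM value. Per the submitters' processing notes, the tools were StringTie 1.3.4d, HISAT2 2.0.4, cutadapt 1.9, DESeq2 and edgeR, on build hg38. The sources used here do not give their roles, the annotation release or the strand setting. The authors' deposited counts are whole numbers but pile up at 4 (10696 values, against 4024 at 3 and 2277 at 5), so they were read as estimated counts, and rounding before the tests changed none. The deposited FPKM values served to compare levels between genes and, with a pseudocount of 1, as an alternative.

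Low genes were removed with filterByExpr (minimum count 10, total 15). Counts were scaled by TMM and tested over all 9 libraries with edgeR's quasi-likelihood F test (edgeR 4.0.16, R 4.3.3), adjusted by Benjamini-Hochberg over 20157 genes and called below 0.05. CPM values use TMM library sizes. SE is the log2 fold change divided by the square root of F. The script was tested on simulated data, where DESeq2 made more false calls than edgeR, so DESeq2 served as an alternative only. Alternatives were other filters, DESeq2 1.42.0, limma 3.58.1 on log2(FPKM + 1), counts divided by 4, the groups of a comparison alone, a replicate block and leaving out each library. Motifs were searched in RefSeq windows (GRCh38.p14).

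The 10 genes and the gene lists were chosen with earlier results of these data known. Named genes are the 10 in each comparison, genes of the other lists called in any comparison, HSF1, HSF2, HSP90AB1, HSPD1, HSPA6 and HSPA5, and the 5 genes most like the member with the lowest p. Of the immediate early and marker genes called, JUN and LYZ are given with values. HSPA14, with more than 1 row, was left out of list counts.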

Additional observations from a re-analysis of the deposited data

How the results depend on the processing

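Against DMSO, the PQY09 calls of HSPA1A and HSPA1B and the PQY23_1 call of HSPA1B held in all 19 alternatives. Over all member fold changes and alternatives, 527 kept direction and call, 25 lost the call, 10 gained it and 8 changed sign. Changes of sign came from leaving out 1 library, in fold changes that were not called. Over these leave-outs HSPE1 ranged from -0.40 to 0.12 for PQY09 and from -0.44 to 0.089 for PQY23_1, both positive only without DMSO replicate 1. DNAJA1 ranged from -0.031 to 0.087 for PQY23_1, negative without DMSO replicate 1 or PQY23_1 replicate 1. Between the compounds HSPH1 ranged from -0.024 to 0.014, positive without PQY09 replicate 2, PQY23_1 replicate 1 or PQY23_1 replicate 2, and HSPE1 from -0.087 to 0.023, positive without PQY23_1 replicate 2.

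Between the compounds, the members called were 0 with no filter and with only those 2 groups fitted, 2 with a 1 CPM filter, with limma at each setting and with counts divided by 4, and 4 with DESeq2, which added HSPA1B, HSPB1 and BAG3. The pair's difference was then -0.32 (adjusted p = 0.0619) with no filter and -0.31 (adjusted p = 0.0894) with 2 groups. DESeq2 called 1464, 1480 and 1285 genes against the 574, 514 and 448 of edgeR, and 2 groups alone gave 224 for PQY23_1 against DMSO and 295 between the compounds. Leaving out 1 library gave 235 to 628, 138 to 371 and 222 to 397 genes, 2 to 3, 1 to 3 and 0 to 1 members, and a pair change of 0.75 to 0.82, 0.44 to 0.52 and -0.35 to -0.26.

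The sources used here do not say whether replicate numbers pair the libraries. The 9 same-number correlations were -0.036 to 0.026, none over 0.1, beside -0.044 to 0.038 for different numbers. A correlation over many genes cannot exclude a replicate effect confined to some of them, so pairing was not settled. With a replicate block the calls were 342, 237 and 267 genes and 2, 2 and 1 members, HSPH1 being the one lost (adjusted p = 0.0672 and 0.0737), and the pair changed by 0.79, 0.48 and -0.31. The spread of HSPA8 and HSPE1 (SE 0.13 and 0.21 for PQY09) was wider than that of HSPH1 (0.05), which was called at a like size of difference. The causes of these changes were not tested.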

Other observations

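One library stood apart at the locus next to HSPE1. The read-through gene HSPE1-MOB4 had 2067 counts in PQY23_1 replicate 1 and 0 in the other 8 libraries, while MOB4 had 2121 counts there and 3062 to 4427 elsewhere. HSPE1 itself was at 369 CPM in that library, against 317 and 343 in the other PQY23_1 libraries. HSPE1 also had the highest coefficient of variation of the 10 genes in DMSO, 37.9%, where the 95th percentile over 9391 genes with at least 10 CPM was 32.5%. In PQY09 DNAJB1 had the highest, 14.98%, above the median of 6.08% but below the 95th percentile of 33.4%.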
